A study of Mus musculus with 9 samples.

Results

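The genes examined were 10 genes of the Wnt pathway that act in the developing limb: Wnt5a, Wnt7a, Ror2, Fzd10, Rspo2, Dkk1, Sfrp2, Axin2, Lef1 and Tcf7. They were chosen by name, and a HOX13 site was assigned to one of them when a peak summit lay in the gene body or within 100 kb on either side. The windows of these 10 of the 19912 protein-coding genes considered held 354 of the 187006 sites found across the genome. A site is the stretch covered by peak intervals of the 9 deposited lists that share 1 bp or more.

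Wnt proteins are secreted signals that bind Frizzled receptors. In the canonical branch this stabilises beta-catenin, which enters the nucleus and switches on target genes together with TCF/LEF factors, whereas a non-canonical branch acts through receptors such as ROR2 on cell shape and movement. In the limb bud, WNT5A and ROR2 act in the outgrowth of the skeleton and digits, WNT7A from the dorsal ectoderm gives the limb its dorsal identity, and canonical signalling is needed by the ridge of ectoderm that keeps the limb growing. HOXA13 and HOXD13, together called HOX13, are homeodomain transcription factors of the digit-forming part of the limb.

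The data were CUT&RUN libraries from mouse distal forelimb, a method in which an antibody tethers a nuclease to a protein on chromatin and the released DNA is sequenced. There were 3 wild-type (wt) HOXA13 and 3 wt HOXD13 libraries at E12.5, 2 HOXA13 libraries at E12.5 from embryos homozygous for II1 T-DOM 542 (542), and 1 HOXD13 library of the 542 line labelled E11.5. The 542 allele is a single line in which the limb enhancer II1, a promoter and a lacZ reporter were inserted beside the HoxD cluster on chromosome 2, and all animals carried the strain label B6CBAF1. Each library was a pool of several embryos, so that cells of all kinds in the distal forelimb were mixed, and more bound cells cannot be told from more binding per cell. No expression was measured, and the tissue label could not be checked with markers.

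The lists held from 23939 intervals in wt HOXD13 replicate 1 to 117719 in 542 HOXD13. Read ends ran from 36.9 M in wt HOXD13 replicate 3 to 65.5 M in 542 HOXD13, with 38.5 M in wt HOXD13 replicate 1. The intervals in the 10 windows numbered 56 in the shortest list and 226 in the longest. Both wt replicates 3 stood apart from replicates 1 and 2, since the presence of their strongest intervals deviated together (correlation 0.341) and against replicates 1 and 2 of the other antibody (from -0.262 to -0.140). The wt HOXD13 replicate 3 is described in the labels as a reanalysis of an earlier sample. The 542 libraries were also mapped on their own genome, so that genotype and mapping cannot be told apart, and chromosome 2, where the insert shifts positions, was left out (none of the 10 genes lies there).

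Of the 354 sites, 156 were called in 1 list only (44.1%, where 50.0% of all sites were) and 29 in all 9 lists. That is 8.19% of the sites of these genes in all 9 lists, where 6.40% of all sites of the genome were. The 29 sites lay at 8 of the 10 genes, with 10 at Ror2, 3 each at Wnt5a, Sfrp2, Axin2, Lef1 and Fzd10, 2 each at Wnt7a and Dkk1, and 0 at Rspo2 and Tcf7. The list of wt HOXD13 replicate 1 was the one that limited this number, which was 37 without it and between 29 and 31 without any other single list, and 37 without both wt replicates 3.

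Among the 29 sites, 7 held a HOX13 word within 50 bp of the summit, that is, one of the 8 words CCAATAAA, CCAGTAAA, CCCATAAA, CCCGTAAA, CTAATAAA, CTAGTAAA, CTCATAAA and CTCGTAAA on either strand. The sequences of 5 of them are shown here because these sites joined a call in every library with a match to the consensus, with at most 2 taken per gene and the strongest first. Each is the plus strand of mm10, 101 bases centred on the summit, with the word in capitals (read on the opposite strand where the capitals begin with TTTA). The pair in the introns of Ror2 lay at chr13:53258969-53259069 and chr13:53253450-53253550, the site upstream of Fzd10 at chr5:128553360-128553460, and those on either side of Sfrp2 at chr3:83710040-83710140 and chr3:83816697-83816797.
Ror2 intron, 27.1 kb into the gene: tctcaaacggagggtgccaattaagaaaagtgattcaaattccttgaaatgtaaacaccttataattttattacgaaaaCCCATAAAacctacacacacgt
Ror2 intron, 32.6 kb into the gene: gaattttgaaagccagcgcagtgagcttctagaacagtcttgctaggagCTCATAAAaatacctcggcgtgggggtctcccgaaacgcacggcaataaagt
Fzd10, 47.4 kb upstream: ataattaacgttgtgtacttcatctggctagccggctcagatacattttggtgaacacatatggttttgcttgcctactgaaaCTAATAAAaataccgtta
Sfrp2, 56.2 kb upstream: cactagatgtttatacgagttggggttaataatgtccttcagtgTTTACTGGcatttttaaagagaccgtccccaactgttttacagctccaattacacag
Sfrp2, 50.4 kb downstream of the start: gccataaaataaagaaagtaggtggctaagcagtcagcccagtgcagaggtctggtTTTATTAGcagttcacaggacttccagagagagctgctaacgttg

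A further set shows the sites at the promoters and at the canonical target Axin2. The word of TCF/LEF factors, CTTTGAA or CTTTGAT on either strand, lay within 50 bp of the summit at 2 of the 29 sites, and both belonged to Axin2. The Fzd10 site was the only one at a promoter of the 10 genes with a HOX13 word. These 3 were chosen after their values were seen. Capitals mark the TCF/LEF word in the first and second sequence and the HOX13 word, on the opposite strand, in the last, and all are plus strand of mm10 at chr11:108920759-108920859, chr11:108947578-108947678 and chr5:128600350-128600450.
Axin2 promoter, 0.5 kb into the gene: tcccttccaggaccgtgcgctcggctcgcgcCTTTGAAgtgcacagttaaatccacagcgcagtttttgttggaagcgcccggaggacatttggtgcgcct
Axin2 intron, 27.3 kb into the gene: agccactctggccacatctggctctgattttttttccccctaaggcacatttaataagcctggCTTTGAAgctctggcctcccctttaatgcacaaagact
Fzd10 promoter, 0.4 kb upstream: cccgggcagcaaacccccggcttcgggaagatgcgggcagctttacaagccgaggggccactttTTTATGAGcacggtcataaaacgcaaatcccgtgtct

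HOX13 intervals were denser at these genes than in the genome. The ratio of intervals per Mb in the 10 windows to intervals per Mb of the genome was 2.11 ± 0.184 (SD, n = 3) in wt HOXA13, 2.18 ± 0.224 (SD, n = 3) in wt HOXD13, 2.04 ± 0.0741 (SD, n = 2) in 542 HOXA13 and 1.98 in 542 HOXD13, which has no replicate. The density stood at the median over libraries at percentile 98.7 of all protein-coding genes for Ror2, 96.9 for Sfrp2, 96.3 for Lef1, 93.2 for Fzd10, 90.0 for Wnt5a, 86.6 for Axin2 and 65.0 for Dkk1. Tcf7, Wnt7a and Rspo2 were below the middle of all genes, at percentiles 41.4, 39.6 and 38.4. Windows around genes are richer in intervals than the genome as a whole, and these percentiles, taken among genes, are the closer comparison.

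The map of sites by distance from each gene start shows where they lay. Of the 354 sites, 159 were intergenic, 89 lay in introns of the gene itself, 15 at its promoters (within 1 kb of an annotated start) and 6 in its other exons. The others were 55 in introns, 7 at promoters and 4 in exons of other coding genes, and 19 in noncoding genes. Of the sites in all 9 lists, 13 were intergenic and 7 in introns of the gene itself, 1 at a promoter of the gene itself and 3 at promoters of neighbouring genes. As a share of the sites in each place, these were 8.18% of the intergenic sites, 7.87% of those in own introns, 6.67% of those at own promoters and 42.9% of the 7 at promoters of other genes. Sites of the whole genome were not divided by place, so whether these shares are particular to the 10 genes was not tested. By antibody, 130 sites (36.7%) were called with both antibodies in wt, where 28.7% of all sites of the genome were. Another 87 (24.6%) were in wt HOXA13 lists only, 36 (10.2%) in wt HOXD13 lists only and 101 (28.5%) in no wt list, where these shares were 24.4%, 12.7% and 34.3% over the genome. The wt HOXA13 lists held 57367 to 86941 intervals and the wt HOXD13 lists 23939 to 76838, and the part of list length in these classes was not tested. Among the 101 sites, 59 were in the deep 542 HOXD13 list alone, and the share of all sites in that list alone was not counted.

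**Figure D1:**
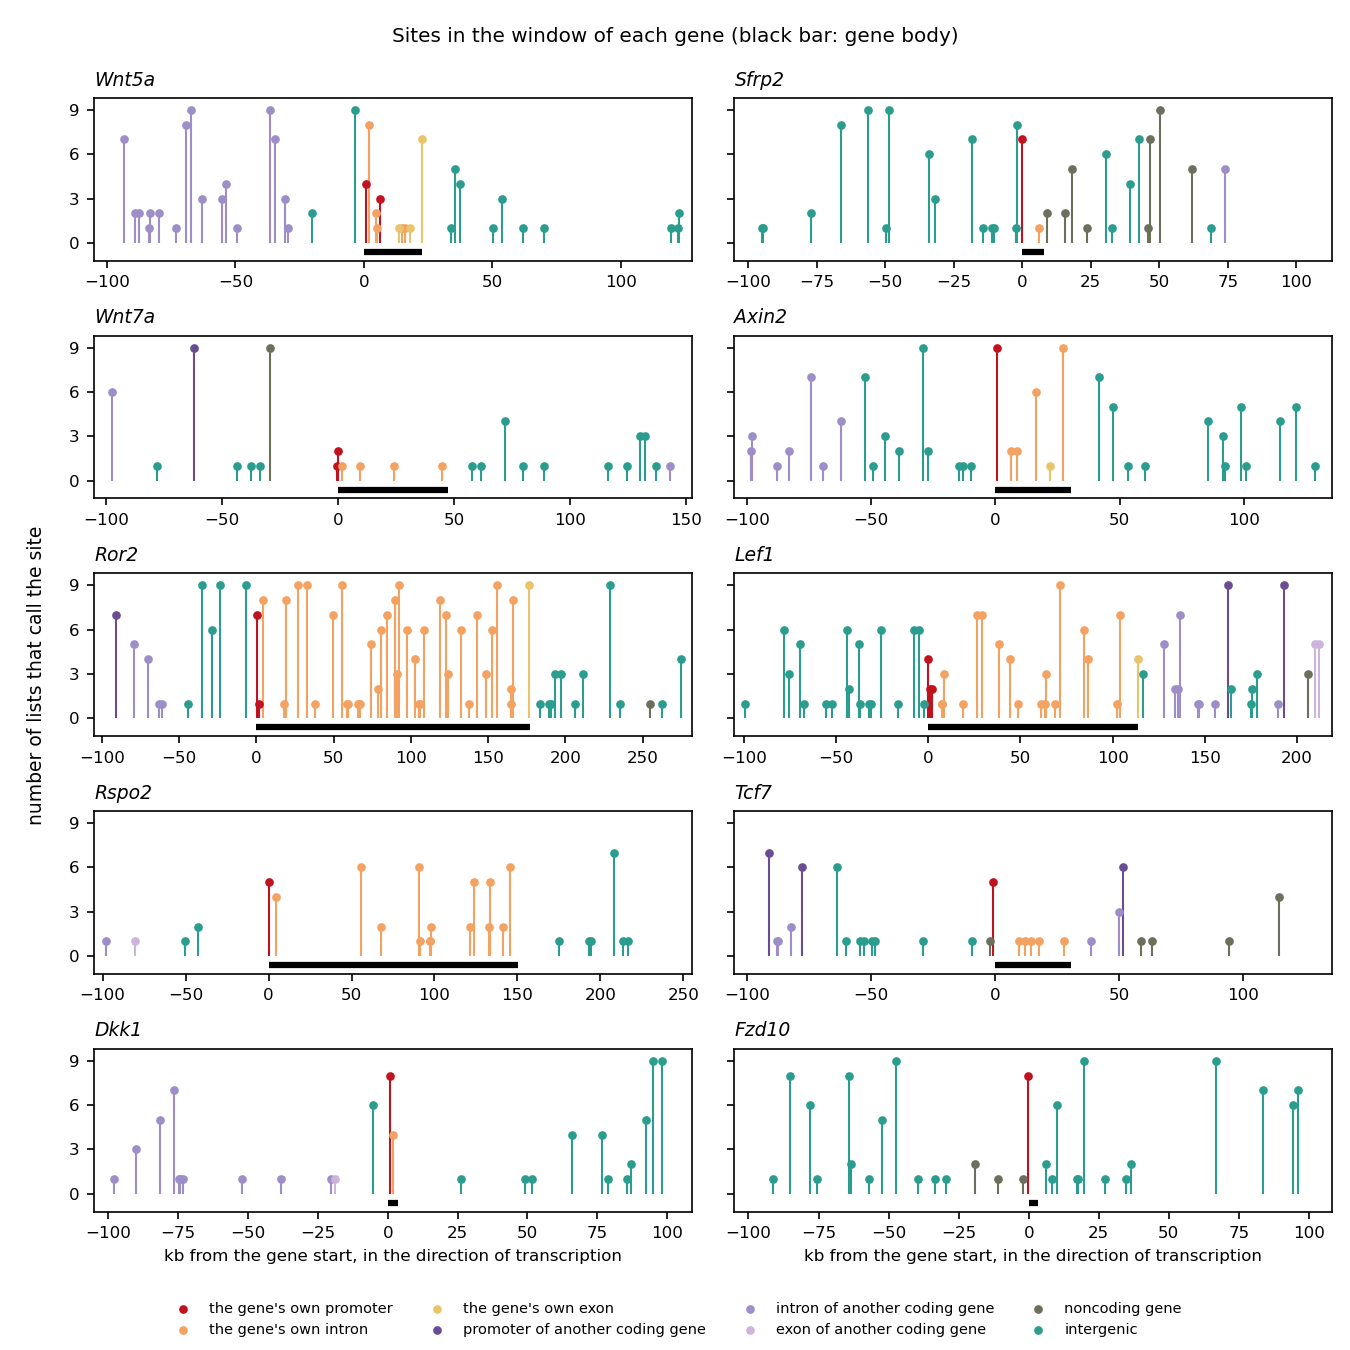
Sites in the window of each gene by distance from the gene start (x axis, kb in the direction of transcription) and number of lists that call them (y axis, of 9), coloured by place, with the gene body as a black bar. The sites of Ror2 in 9 lists are spread over its introns and both flanks, whereas Rspo2 and Tcf7 have no site above 7 lists.

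Wnt5a, the ligand of the non-canonical branch, lies on chromosome 14 (chr14:28504750-28527448, plus strand) and had 39 sites. Its strongest site was 36.6 kb upstream in an intron of the neighbouring gene Erc2. The fold enrichment, the pileup of reads at the summit over the local background, was 11.6, 11.8 and 4.85 there in wt HOXA13 replicates 1 to 3 and 6.79, 9.0 and 5.34 in wt HOXD13. It was 9.71 and 10.2 in the 542 HOXA13 libraries and 5.32 in 542 HOXD13. By −log10 p this interval was between rank 842 and rank 2537 of its list in all 9 libraries, so it was near the top of each.

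A site 3.3 kb upstream of Wnt5a was less even. Its fold enrichment was 11.0, 10.1 and 3.13 in wt HOXA13, 2.67, 4.28 and 2.64 in wt HOXD13, 9.94 and 9.59 in 542 HOXA13, and 8.65 in 542 HOXD13. Both other wt HOXA13 libraries were high, whereas wt HOXA13 replicate 3 lay among the wt HOXD13 libraries, so the wt groups overlapped. The last of the 3 leading sites was 67.4 kb upstream in Erc2, with a fold enrichment from 3.16 to 7.15.

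At the promoters of Wnt5a itself the calls were few and low in fold enrichment. A summit 942 bp past the first start was called in wt HOXA13 replicate 3 (fold enrichment 1.81), in both 542 HOXA13 libraries (2.19 and 2.01) and in 542 HOXD13 (1.57), and in 0 of 3 wt HOXD13 libraries. The pileup at this summit was 43 read ends in wt HOXA13 replicate 3, 116 and 57 in 542 HOXA13 and 140 in 542 HOXD13. The low fold enrichment there is thus relative to the local background. A summit 472 bp before a later start was called in 3 lists at 2.1 to 2.50. Next to them, an intronic site 2.0 kb past the start was called in 8 lists, at 2.13 and 2.05 in 2 wt HOXA13 libraries and at 3.42, 3.58 and 3.02 in the 3 wt HOXD13 libraries. A site in the last exon, in the UTR, was called in 7 lists, with its highest fold enrichment, 8.56, in 542 HOXA13 replicate 1.

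Wnt7a, the dorsal ligand, lies on chromosome 6 (chr6:91363981-91411363, minus strand) and had 24 sites. Of the Wnt7a sites, 17 were called in 1 list only, where 50.0% of all sites of the genome were. Both of its sites in all 9 lists belonged to other genes: one was at the promoter of Chchd4, 62.2 kb upstream, with a fold enrichment from 2.86 in wt HOXA13 replicate 3 to 10.2 in 542 HOXD13, and one was in a noncoding gene 29.5 kb upstream, from 2.65 to 6.87. A site 97.4 kb upstream in an intron of Xpc was called in 6 lists, with 11.4 and 8.88 in 542 HOXA13. The Wnt7a promoter was the least often called of the 10: a summit 107 bp past the start was called in wt HOXA13 replicate 2 (3.28) and wt HOXD13 replicate 2 (2.05), a summit 338 bp upstream in wt HOXA13 replicate 1 (2.51), and none in a 542 library. Wnt7a is known as an ectodermal gene, and the share of ectoderm in these pools was not measured.

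Ror2, which encodes the receptor tyrosine kinase that binds WNT5A, lies on chromosome 13 (chr13:53109312-53286124, minus strand). It had 62 sites, of which 37 lay in its own introns, and the most sites in all 9 lists of the 10 genes. The strongest of all 354 sites, by the median percentile within the lists, was in its intron 27.1 kb past the start, the first sequence shown above. The fold enrichment there was 16.3, 14.3 and 8.27 in wt HOXA13, 10.5, 10.1 and 6.93 in wt HOXD13, 16.8 and 14.8 in 542 HOXA13 and 13.7 in 542 HOXD13. Within its list the interval had rank 47, 83 and 160 in wt HOXA13, 83, 477 and 240 in wt HOXD13, 160 and 226 in 542 HOXA13, and 2134 in 542 HOXD13, and the ranks of the wt groups overlapped.

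Several other Ror2 sites were also near the top. The site 32.6 kb into the gene, with a HOX13 word that begins 1 bp before the summit, had a fold enrichment of 13, 11.9 and 3.78 in wt HOXA13 and 7.30, 12.9 and 5.11 in wt HOXD13. It reached 15.1 and 13.4 in 542 HOXA13, and 13.7 in 542 HOXD13. In both wt groups replicate 3 was the lowest library. At 155.4 kb, in another intron and with no HOX13 word, the fold enrichment was 14.1, 13.2 and 7.06 in wt HOXA13 and 5.60, 7.50 and 5.06 in wt HOXD13, where again the groups overlapped on this scale. Its ranks did not overlap, at 436, 412 and 554 in wt HOXA13 against 2670, 3344 and 2486 in wt HOXD13.

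The other Ror2 sites in all 9 lists were intronic at 55.3 and 92.2 kb, both with a HOX13 word, intergenic at 7.0, 23.7 and 35.2 kb upstream and at 228.7 kb, and in the UTR of the last exon at 176.3 kb. Their fold enrichment lay between 2.56 and 13.9. The promoter of Ror2 was called in 7 lists by a summit 63 bp upstream of an annotated start, at 2.20 to 4.99, far weaker than the introns, and not in wt HOXD13 replicates 1 and 3. A summit near another start, at 990 bp, was called in 542 HOXA13 replicate 1 alone (2.52).

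Fzd10, a Frizzled receptor with a short gene of 3.25 kb on chromosome 5 (chr5:128600844-128604093, plus strand), had 29 sites, of which 25 were intergenic. The strongest lay 66.7 kb past the start, with a fold enrichment of 15.5, 11.3 and 8.24 in wt HOXA13, 5.37, 8.82 and 6.91 in wt HOXD13, 14.6 and 13.5 in 542 HOXA13 and 13.9 in 542 HOXD13. The lowest wt HOXA13 library was below the highest wt HOXD13 library, so these groups overlapped. The site 47.4 kb upstream, whose sequence is shown above, ranged from 4.37 to 8.39, and the site at 19.7 kb from 3.43 to 10.1.

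The Fzd10 promoter was among the best called of the 10. A summit 444 bp upstream was called in 8 lists and missed in wt HOXD13 replicate 3. Its fold enrichment was 6.97, 5.82 and 3.46 in wt HOXA13, 3.82 and 5.22 in the other wt HOXD13 libraries, 7.66 and 7.45 in 542 HOXA13 and 6.93 in 542 HOXD13. Its HOX13 word began 14 bp past the summit.

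Rspo2, a secreted agonist that raises Wnt signalling at the receptor, lies on chromosome 15 (chr15:43020794-43170826, minus strand). It had 25 sites, 14 of them in its introns, and no site in more than 7 lists. The most often called was intergenic, 207.9 kb past the start, with a fold enrichment of 4.05 and 4.01 in 2 wt HOXA13 libraries, 3.24 and 3.11 in 2 wt HOXD13 libraries, 5.11 and 3.46 in 542 HOXA13 and 5.37 in 542 HOXD13. Intronic sites at 145.6, 90.5 and 55.9 kb were called in 6 lists each. The promoter was called in 5 lists at 2.93 to 3.78 by a summit 344 bp past the start, in 1 wt HOXA13 and 2 wt HOXD13 libraries.

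Dkk1 and Sfrp2 encode secreted inhibitors: DKK1 blocks the LRP co-receptors, and SFRP2 binds Wnt proteins outside the cell. Dkk1 (chr19:30545863-30549665, minus strand) had 25 sites. Those in all 9 lists lay close to each other 98.0 and 94.9 kb past the start, with a fold enrichment of 3.50 to 7.52 and of 2.83 to 6.95. The Dkk1 promoter was called in 8 lists by a summit 926 bp past the start and missed in wt HOXD13 replicate 1, but it was weak in each, at 2.61 to 3.46, with a median percentile of 25.2 within the lists.

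Sfrp2 (chr3:83766321-83774316, plus strand) had 31 sites, of which 20 were intergenic. Its site 56.2 kb upstream, shown above, had a fold enrichment of 6.23, 5.94 and 5.02 in wt HOXA13, 3.01, 4.55 and 3.27 in wt HOXD13, 10.8 and 10.2 in 542 HOXA13 and 9.33 in 542 HOXD13. On this scale the 3 wt HOXA13 libraries were above the 3 wt HOXD13 libraries and below both 542 HOXA13 libraries. The share of all sites apart in this way on fold enrichment was not counted, and shares by rank are given below. The site 50.4 kb past the start, in the noncoding gene Gm7115, ranged from 3.78 to 8.94, and the site 48.7 kb upstream from 3.10 to 7.21. The promoter of Sfrp2 was called in 7 lists, not in either wt replicate 3, by a summit 80 bp upstream, at 3.02 to 4.93 outside 542 HOXD13, where it reached 8.82.

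Axin2, a direct target of canonical signalling that encodes part of the complex that degrades beta-catenin, lies on chromosome 11 (chr11:108920349-108950783, plus strand) and had 34 sites. Its promoter was the only one of the 10 called in all 9 lists, by a summit 460 bp past the start, with the TCF/LEF word starting 19 bp before the summit and no HOX13 word. The fold enrichment was 10.8, 8.54 and 7.70 in wt HOXA13, 7.96, 8.84 and 6.84 in wt HOXD13, 11.7 and 9.55 in 542 HOXA13 and 12.3 in 542 HOXD13. The percentile of −log10 p was at least 96.5 in all 9 libraries, so this site was among the strongest in each, and the wt groups overlapped.

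A site in an intron of Axin2, 27.3 kb past the start, held the other TCF/LEF word, 13 bp past the summit, and had a fold enrichment of 4.80 to 7.10 in the 6 wt libraries, 10.4 and 7.82 in 542 HOXA13 and 13.3 in 542 HOXD13. The site 29.2 kb upstream ranged from 3.88 to 6.40. A TCF/LEF word was found at 20 of the 354 sites (5.65%) and at 4.34% of all sites, so a word at a given site is a description only.

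Lef1 and Tcf7 encode nuclear factors that carry the canonical signal to DNA. Lef1 (chr3:131110471-131224356, plus strand) had 58 sites, 18 of them in its introns. Of its 3 sites in all 9 lists, 1 lay in its intron 71.4 kb past the start, with a fold enrichment of 2.92 to 9.26. The others were at the promoters of Hadh at 162.4 kb, with 8.57, 6.21 and 5.90 in wt HOXA13, 3.55, 5.14 and 3.69 in wt HOXD13, 12.1 and 11.9 in 542 HOXA13 and 9.82 in 542 HOXD13, and of Cyp2u1 at 192.8 kb, with 3.02 to 9.84. At the Hadh promoter the 3 wt HOXA13 libraries were above the 3 wt HOXD13 libraries and below both 542 HOXA13 libraries. The share of all sites apart in this way on fold enrichment was not counted here either.

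The starts of Lef1 were called in 5 lists in all. A summit 191 bp upstream was called in 4 lists, with 2.42 in wt HOXA13 replicate 1, 3.32 and 2.56 in wt HOXD13 replicates 2 and 3 and 5.37 in 542 HOXD13. Summits at 782 bp and at 373 bp from a start were called in 2 lists each, at 2.62 to 3.26. Among the strongest 20000 intervals of each list Lef1 had 5, 5 and 10 in wt HOXA13, with replicate 3 the highest.

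Tcf7 (chr11:52252371-52283014, minus strand) had 27 sites. Of the Tcf7 sites, 19 were called in 1 list only and 0 in all 9 lists, where 50.0% and 6.40% of all sites were. Its most often called sites were the promoter of Vdac1, 91.2 kb upstream, called in 7 lists at 3.25 to 8.79 and holding a HOX13 word, an intergenic site 63.7 kb upstream in 6 lists, with 11.4 in 542 HOXD13, the promoter of Skp1a, 51.4 kb past the start, in 6 lists, and another Vdac1 promoter site, 77.7 kb upstream, also in 6 lists. The Tcf7 promoter was called in 5 lists by a summit 863 bp upstream, in 2 wt HOXA13 libraries (2.97 and 3.23), both 542 HOXA13 libraries (3.95 and 2.59) and 542 HOXD13 (3.97), and in 0 of 3 wt HOXD13 libraries.

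**Figure D2:**
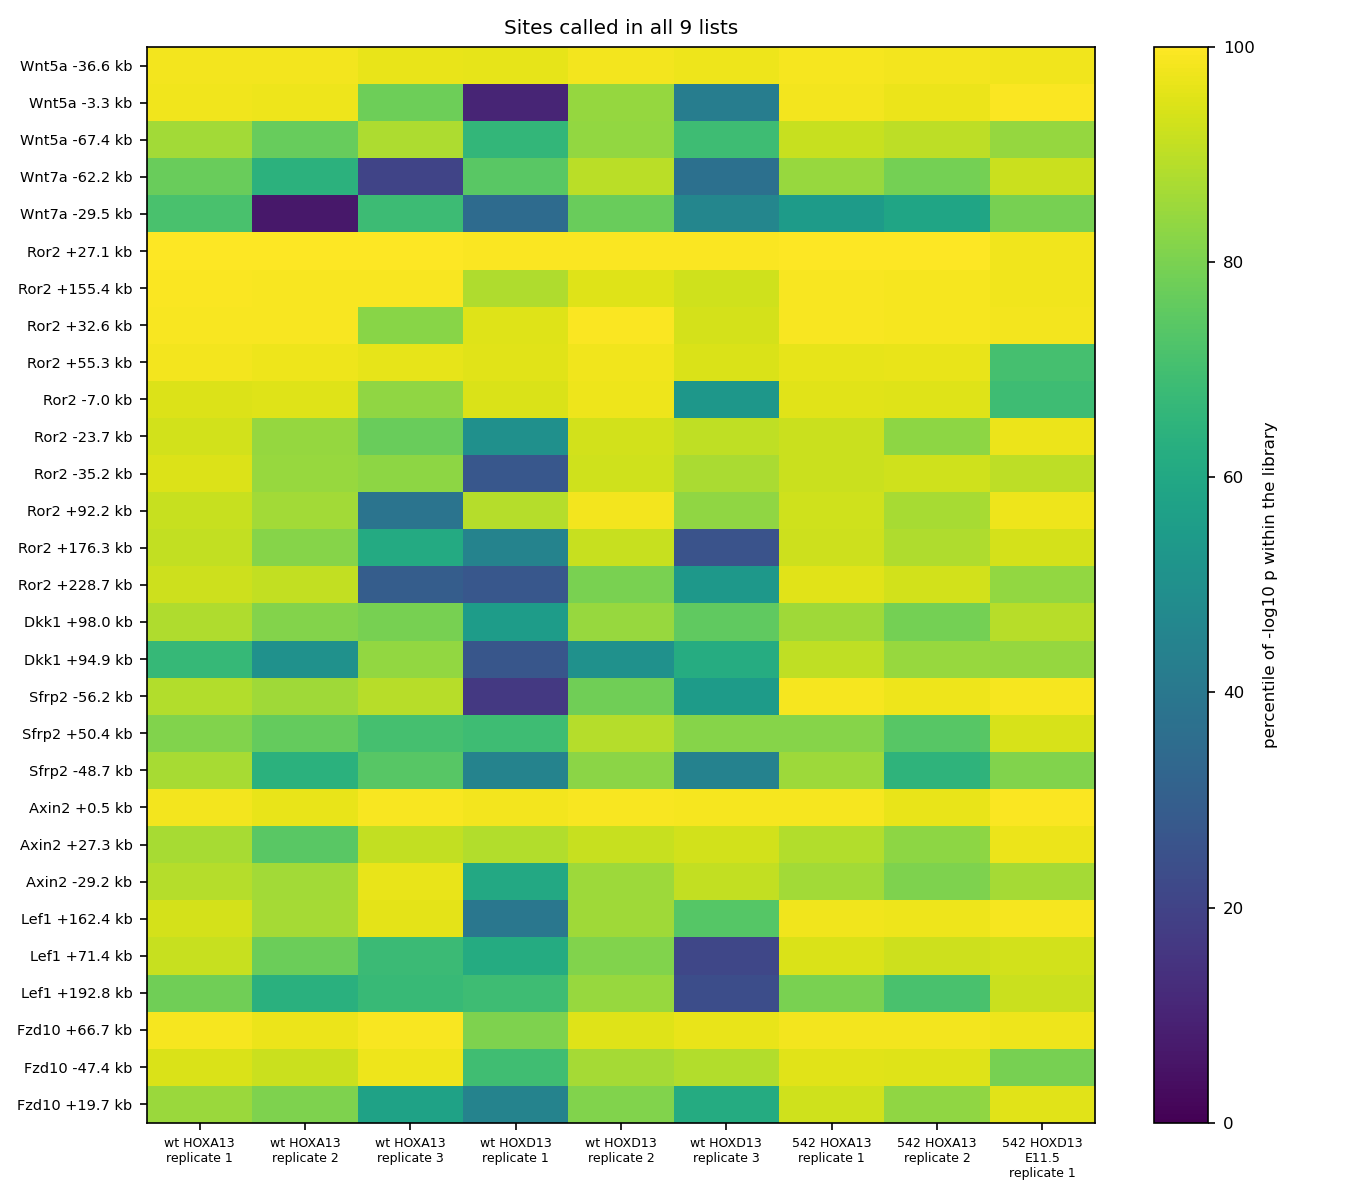
Percentile of −log10 p within its own library (colour, 0 to 100) of the 29 sites called in all 9 lists (rows, by gene and distance from the gene start) in each of the 9 libraries (columns). The rows Ror2 +27.1 kb, Axin2 +0.5 kb and Wnt5a -36.6 kb are at or above percentile 96.1 in every column, and the lowest values are mostly in wt HOXD13 replicate 1, the shortest list.

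The promoters of the 10 genes were thus called in 3 to 9 lists. Their median was 6 lists, where the median of all protein-coding genes was 4. In all 9 lists 1 of 10 was called, where 20.0% of all protein-coding genes were, and 0 of 10 were called in no list, where 33.5% of all genes were. Without both wt replicates 3, the number called in every remaining list was 3. These counts are small, and the number of starts per gene was not matched. The lists have no control library. At the HBB promoter of the inserted construct the paper considers an additional peak likely non-specific, from promiscuous activity of the nuclease. Whether such signal enters the promoter calls given here, that of Axin2 included, was not tested.

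**Figure D3:**
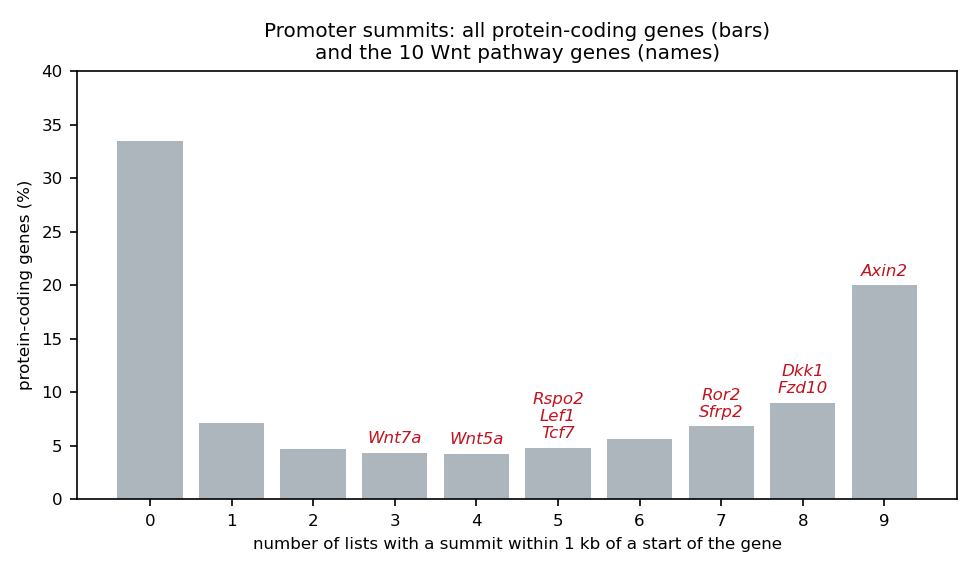
Number of lists with a summit within 1 kb of a start of the gene (x axis) and percent of the 19912 protein-coding genes with that number (bars), with the 10 genes named above their bar. The 10 genes lie between 3 and 9 lists, and Axin2 alone is at 9.

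Of the other genes of the pathway, 73 were listed by their known roles and 70 lay on the chromosomes used. Their promoters were called in all 9 lists for 14 genes (20.0%), in 1 to 8 lists for 47 and in no list for 9, with a median of 4.50 lists. The share in all 9 lists was that of all protein-coding genes. The highest median percentiles within the lists were at the promoters of the Frizzled receptor gene Fzd2 (99.7), of Gsk3b, which encodes a kinase of the complex that degrades beta-catenin (99.3), of the receptor genes Fzd5 (95.6) and Fzd7 (94.7), and of Vangl1, a gene of planar cell polarity (90.8). The 9 promoters called in no list were those of the ligand genes Wnt1, Wnt8b, Wnt9b, Wnt10a and Wnt16 and of Dkk4, Sfrp4, Sost and Sostdc1. The promoter of another ligand gene, Wnt11, was called in all 9 lists.

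Whether HOXA13 and HOXD13 differed at these genes in wt was asked with the strongest 20000 intervals of each list. Each list thus gave the same number, but the cut fell at different depths of the lists. The wt HOXD13 replicate 1 list held 21999 intervals on the chromosomes used, and that of wt HOXA13 replicate 1 held 80098. In the 10 windows the cut kept 55 of 56 intervals of the first list and 42 of 172 of the second. The groups overlapped at all 10 genes. With the replicate number as a block, Lef1 was above and Ror2 and Sfrp2 were below, where 3.50% and 17.0% of all genes were. The replicate numbers were not taken as pairs, for the reason given at the end. The counts in HOXA13 and HOXD13 were 14, 12 and 9 against 17, 16 and 13 at Ror2, the gene with the largest difference of means (11.7 ± 2.52 against 15.3 ± 2.08, SD, n = 3, exact two-sided permutation p = 0.2). At Sfrp2 they were 6, 5 and 4 against 7, 7 and 6 (exact permutation p = 0.2), and at Lef1 5, 5 and 10 against 4, 4 and 6 (exact permutation p = 0.500).

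Wnt5a had 4, 5 and 6 against 5, 4 and 5, Fzd10 7, 7 and 6 against 8, 6 and 4, and Axin2 4, 4 and 5 against 5, 5 and 5. Wnt7a, Rspo2, Dkk1 and Tcf7 had from 0 to 3 intervals in each library. Of all 17326 genes tested, 1.24% had every HOXA13 library above every HOXD13 library and 9.51% had every one below, beside 0 and 0 of the 10 genes. A comparison of 3 with 3 cannot give p below 0.1, and after Benjamini-Hochberg adjustment over all genes each of the 10 was at 1 and no gene of the genome was below 0.05 (smallest 0.930). Of the 70 other pathway genes, 1 was above and 7 were below. Groups of fewer libraries separate more often. Without wt HOXD13 replicate 3, 1 of the 10 genes was above (Lef1) and 2 were below (Ror2 and Sfrp2), where 3.14% and 22.2% of all genes were. Without both wt replicates 3, Axin2 was below as well, which made 1 above and 3 below, where 6.89% and 28.6% of all genes were.

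**Figure D4:**
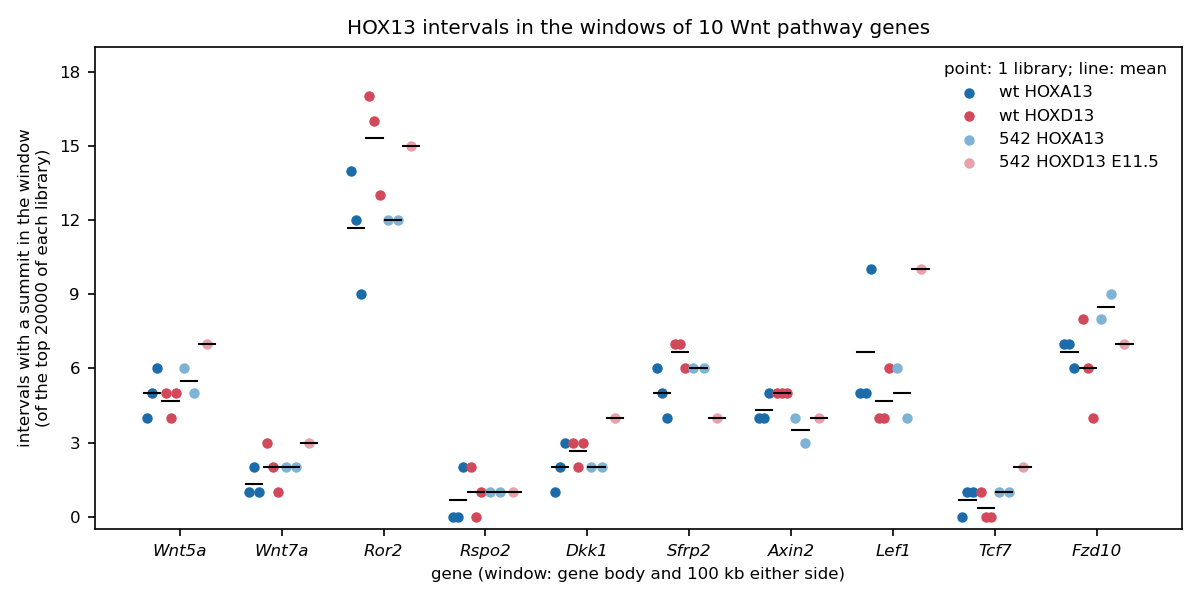
Intervals with a summit in the window of each gene (y axis, of the strongest 20000 intervals of each library) in 4 groups, with a point for each library and a line at the mean. The points of wt HOXA13 and wt HOXD13 overlap at each gene, and at Fzd10 both 542 HOXA13 points lie above the 3 wt HOXA13 points.

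Single sites were compared next. Of the 354 sites, 4 were called in all 3 wt HOXA13 lists and in no wt HOXD13 list (1.13%, where 0.899% of all sites were), and 0 were called in the reverse way (0.0187% of all sites). The 4 were 121.1 kb past the start of Axin2, 78.4 kb upstream of Lef1, in an intron of Rspo2 at 55.9 kb and 30.7 kb past the start of Sfrp2. All 4 were weak in wt, with a fold enrichment of 2.41 to 4.70. Among the strongest 20000 intervals there were 0 such sites of 107 (1.27% of all sites) and 1 in the reverse way (0.962% of all sites), which was the intronic Wnt5a site at 2.0 kb that 2 wt HOXA13 libraries also called farther down their lists.

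At sites called in all 6 wt lists, the rank within the list could be compared, a comparison chosen after the lists were examined. Ranks count from the top and were not scaled to list length. The wt lists held from 21999 to 80098 intervals on the chromosomes used, so percentiles within the lists can overlap where ranks do not. Of 30 such sites, HOXA13 ranked above HOXD13 in every library at 3 (10%, beside 9.78% of all such sites). It ranked below at 2 (6.67%, beside 14.1%). The 3 were 56.2 kb upstream of Sfrp2, the Hadh promoter near Lef1 and the Ror2 intron at 155.4 kb. The 2 were 50.4 kb past the start of Sfrp2, with ranks of 15337, 12799 and 15530 in HOXA13 against 6818, 7931 and 6355 in HOXD13, and the Ror2 intron at 92.2 kb. The first share was near that of the genome, and the second was lower but rests on 2 sites.

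HOXA13 in wt and 542 embryos was compared in the same way. Of the 10 genes, 9 overlapped between genotypes. At Fzd10 the 3 wt libraries, with 7, 7 and 6 intervals, were below both 542 libraries, with 8 and 9 (6.67 ± 0.577, n = 3, against 8.50 ± 0.707, n = 2, SD, exact two-sided permutation p = 0.1, the smallest that 3 against 2 can give, and 1 after Benjamini-Hochberg adjustment). Of 16939 genes tested, 5.54% had every wt library below and 6.78% every wt library above. The Fzd10 count is therefore at the level of the genome, and it was not apart with windows of 50 kb on either side. No gene of the genome was below an adjusted p of 0.05.

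Ror2 had 14, 12 and 9 intervals in wt and 12 and 12 in 542, Sfrp2 6, 5 and 4 and then 6 and 6, and Lef1 5, 5 and 10 and then 6 and 4. In 542 HOXD13, the single library labelled E11.5, the counts were 15 at Ror2, 10 at Lef1, 7 at Wnt5a and Fzd10, 4 each at Sfrp2, Axin2 and Dkk1 and 2 at Tcf7. This was above the 3 wt HOXD13 libraries at 4 of the 10 genes (Lef1, Wnt5a, Dkk1 and Tcf7), where 13.4% of all genes were, and below them at 2 (Sfrp2 and Axin2), where 16.2% were. At the other 4 it lay within or at the edge of their range. The library has no replicate and a different labelled stage.

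Of the 354 sites, 9 were called in both 542 HOXA13 lists and in no wt HOXA13 list (2.54%, where 4.17% of all sites were) and 2 in all 3 wt and neither 542 list (0.565%, where 0.300% were). The 5 of the 9 with the highest percentile were at Ror2 (in an intron at 91.1 kb, and 193.4 kb past the start), at Tcf7 (49.8 kb, in an intron of Skp1a) and at Lef1 and Ror2 (206.1 and 211.1 kb), all at a fold enrichment of 2.68 to 4.03 in 542 HOXA13. The 2 called in wt and in neither 542 HOXA13 list were 61.9 kb past the start of Sfrp2 and 62.1 kb upstream of Axin2. Their fold enrichment in wt HOXA13 was 6.90, 6.41 and 3.53 at Sfrp2 and 3.33, 2.65 and 2.85 at Axin2. These numbers change with the lists that enter: leaving out 542 HOXA13 replicate 2 gave 37 sites in the first class and leaving out wt HOXA13 replicate 1 gave 26.

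Of 56 sites in all 5 HOXA13 lists, wt ranked above 542 in every library at 10 (18.8% of all such sites) and below at 11 (17.3%). One of the 11 was the site 56.2 kb upstream of Sfrp2, which had ranks of 9233, 7602 and 5737 in wt and 1097 and 1837 in 542. Another was the Fzd10 promoter, with 5912, 6434 and 14924 in wt and 4145 and 5357 in 542. Among the 10 were the Ror2 introns at 155.4 and 55.3 kb, the site 29.2 kb upstream of Axin2 and the Dkk1 site at 98.0 kb. These ranks were not scaled to list length either. As percentiles within the lists, the Fzd10 promoter was at 92.6, 88.1 and 71.9 in wt and 95.5 and 92.2 in 542, which overlap. The Dkk1 site overlapped too, at 88.1, 81.3 and 79.5 in wt and 85.6 and 79.1 in 542. With shares near those of the genome in both directions, neither set distinguishes the 10 genes.

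The HOX13 word was found within 50 bp of the summit at 45 of the 354 sites (12.7%, exact binomial 95% interval 9.43 to 16.6), beside 11.9% of all sites. It was more frequent in sites that more lists called: 6.41% of sites in 1 list, 15.2% in 2 to 5 lists, 18.8% in 6 to 8 lists and 24.1% in all 9 lists. Over all sites of the genome the shares were 7.53%, 15.4%, 17.3% and 18.3%, each within the interval of the share at the 10 genes. In windows of the same length centred 1000 bp to either side of the summit, the word was found at 1.41% for the 10 genes and 2.60% for all sites. Median GC in the 101 bases was 46.5% at the 10 genes and 43.6% over all sites, and its part in these shares was not tested.

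**Figure D5:**
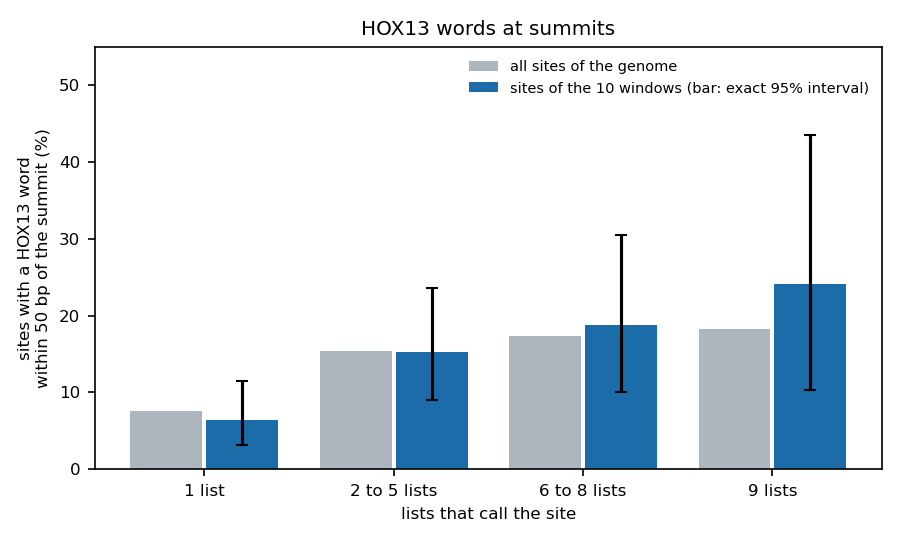
Share of sites with a HOX13 word within 50 bp of the summit (y axis, %) by the number of lists that call the site (x axis), for the 354 sites of the 10 genes (blue, with exact binomial 95% intervals) and for all sites of the genome (grey). The share rises from 6.41% to 24.1% at the 10 genes and from 7.53% to 18.3% over all sites.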

How the data were processed

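CUT&RUN libraries for HOXA13 and HOXD13 were analysed as 9 deposited MACS2 lists, 1 for each library, and grouped by genotype, stage and antibody from the titles. According to the methods of the study, reads were trimmed with Cutadapt, mapped with bowtie2 (wt on mm10, 542 on the mutant genome), filtered on mapping quality, and peaks were called per sample with MACS2 without a control library. The reporting summary names Picard, but whether duplicates were removed before calling is not settled by the sources used here. The growth protocol gives a single collection day, whereas 1 title gives E11.5.

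The fold enrichment the authors deposited is the ratio of the summit pileup to its local background. Each row also holds a deposited −log10 p-value and −log10 q-value from the caller. The score deposited by the authors, not used here, restates the −log10 q-value as an integer. Summits that share an interval were counted as 1 interval. Pileups were solved from the deposited fold enrichment and −log10 p, and came out whole within 0.01 read ends in at least 99.99% of summits, from which the read ends per library were derived. Sites joined intervals with at least 1 bp in common. The reference summit came from the list where the interval had its highest percentile of −log10 p. Genes were GENCODE M21 basic on GRCm38 (the mm10 assembly), chromosomes 1, 3 to 19 and X, with 1-based coordinates.

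Window counts of the top 20000 intervals by −log10 p were compared between groups with exact two-sided permutation tests and Benjamini-Hochberg adjustment over all protein-coding genes with an interval. Each library was a separate pool, so p-values measure the spread between pools. Intervals of shares cover counting error only. The sites named were, per gene, up to 3 called in most lists, all at promoters, and those called in one antibody or one genotype only. Ranks of shared sites were an addition. The genes, lists and tests were chosen with earlier results of these data known. Scripts were checked on simulated data. Python 3.11.15 with scipy 1.17.1, numpy 2.4.6, pysam 0.24.0, pandas 2.3.3 and matplotlib 3.10.9, and samtools 1.23.1, were used. Alternatives changed the threshold, ranking, window, definition of a site or promoter, word window, word and libraries.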

Additional observations from a re-analysis of the deposited data

How the results depend on the processing

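Depth and list length limit these results: a site missing from a short list can be present below its threshold, the strongest intervals alone were comparable between libraries, and 3 against 3 or 3 against 2 libraries cannot pass a threshold of 0.05. Over 113 alternatives, 61 left their value within the spread or within 1.5 times, 43 moved it and 9 reversed the direction with more members. The cause of the changes was not tested, except that fewer intervals, wider windows or fewer lists change a count by construction.

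Sites called in all 9 lists numbered 4 where intervals reached a fold enrichment of 5, 15 where they reached a −log10 q of 5, 15 in the top 20000 and 9 in the gene body alone, and 29 to 37 when each library was left out. Promoters called in all lists numbered 3 within 2500 bp and 3 without both wt replicates 3, and 1 to 2 when each library was left out. The density ratio was 2.38 with 50 kb flanks and 3.11 in the gene body, and 2.09 to 2.18 when each wt library was left out. The share of sites with a HOX13 word was 22% and 17.2% under the same fold enrichment and −log10 q limits, 19.6% in the top 20000, 5.93% within 25 bp, 18.1% within 100 bp and 56.8% with the cores ATAAA and GTAAA.

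Between antibodies, genes with HOXA13 above HOXD13 numbered 1 without both wt replicates 3 (3 below), and 0 to 1 when each library was left out. Between genotypes, genes with 542 above wt numbered 3 and 2 under these limits (0 with wt above in both). They numbered 0 with all intervals as a percent of the list, with 2 where wt was above, 0 ranked by fold enrichment, with 1 where wt was above, and 0 in either direction with 50 kb flanks. They were 2 without both wt replicates 3, where 9.98% of all genes were. When each library was left out they were 1 to 2, with 0 where wt was above. The exception was without 542 HOXA13 replicate 1 (1 above wt, 2 below). No share over all genes was taken under the fold enrichment and −log10 q limits, so the counts there cannot be set beside the genome.

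Sites in every wt HOXA13 and no wt HOXD13 list numbered 1 under the −log10 q limit, 0 in the top 20000 (1 in the reverse way) and 9 without both wt replicates 3, and 4 to 16 when each library was left out, 16 being without wt HOXD13 replicate 2. Sites in both 542 HOXA13 and no wt HOXA13 list numbered 5 in the top 20000 and 16 without both wt replicates 3, and 10 to 37 when each library was left out. Ranks without both wt replicates 3 did not overlap at 9 sites with HOXA13 above HOXD13 and 12 below (26.2% and 34.5% of all such sites), and at 21 with 542 above wt and 19 below (24.9% and 32.7%). When each library was left out, 3 to 6 sites had HOXA13 above and 14 to 21 had 542 above. The larger number changed sides without wt HOXD13 replicate 2 (4 above, 5 below) or 3 (5 and 7), and, for 542 against wt, without wt HOXA13 replicate 2 (17 and 18) or 542 HOXA13 replicate 1 (14 and 15). Alternatives on single sites and ranks, and those without both wt replicates 3, were chosen after the data were examined.

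Same-numbered wt libraries deviated together with correlations of 0.0798, 0.145 and 0.341 over 38658 sites, and HOXA13 replicate 1 went best with HOXD13 replicate 2 (0.218), so the numbers were not taken as pairs. With the replicate block, 1 gene had HOXA13 above HOXD13 (Lef1) and 2 below (Ror2 and Sfrp2), where 3.50% and 17.0% of all genes were, and 2 had 542 above wt (Rspo2 and Fzd10), where 12.0% were.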
